A study of Mus musculus with 144 samples.

Results

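Autophagy delivers parts of the cytoplasm to lysosomes for breakdown, and 10 of its genes were followed here in mouse liver around the day. The genes, Ulk1, Becn1, Atg14, Wipi1, Map1lc3a, Map1lc3b, Gabarapl1, Sqstm1, Bnip3 and Tfeb, were chosen by name from the 51912 gene rows of the count table, and all 10 passed the filter on low counts. Livers came from male C57BL/6J mice kept in 12 h light and 12 h dark and fed freely, either wild type or Bmal1-/-, which are mutant for the clock factor BMAL1, encoded by Arntl. The labels do not say which stretch of the gene is altered. RNA was taken from wild-type liver as total, nuclear or polysomal RNA and from Bmal1-/- liver as total RNA, at zeitgeber times (ZT, hours after lights on) 2, 6, 10, 14, 18 and 22, with 6 libraries in each of 24 groups. Nuclei were spun through a sucrose cushion, and polysomes were taken from sucrose gradient fractions of lysate made with cycloheximide, which holds ribosomes on mRNA. No animal is named for a library, so the labels do not tell whether libraries of different series share a liver. In total and nuclear RNA, same-numbered libraries deviated alike from their group means (r above 0.1 in 34 of 36 pairs). The main tests did not use pairs, and p-values measure only the spread between these libraries.

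In the pathway, the kinase ULK1 starts the formation of an autophagosome. Beclin 1 (Becn1) and ATG14 belong to the lipid kinase complex that marks the forming membrane with phosphatidylinositol phosphate, and WIPI1 binds that lipid. Proteins of the ATG8 family, LC3A (Map1lc3a), LC3B (Map1lc3b) and GABARAPL1, are joined to the membrane and bind cargo receptors, among them p62 (Sqstm1) and the mitochondrial receptor BNIP3. TFEB is a transcription factor of autophagy and lysosome genes. BMAL1 with its partner CLOCK binds DNA at E-boxes with the letters CACGTG, and autophagy in liver is known to respond to fasting and feeding.

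Promoter windows of 300 bases, from 250 before to 50 after a transcript start, were matched by symbol in a RefSeq table (GRCm38.p6) for 8 of the 10 genes. The first 260 bases are printed for 4 genes that were rhythmic in wild-type liver: Bnip3 and Atg14, whose windows hold an E-box, and Ulk1 and Gabarapl1, whose windows do not. Capitals mark CACGTG, and the last 10 bases of each line are the first 10 transcribed.

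Bnip3, chr7:138909497-138909756, minus strand: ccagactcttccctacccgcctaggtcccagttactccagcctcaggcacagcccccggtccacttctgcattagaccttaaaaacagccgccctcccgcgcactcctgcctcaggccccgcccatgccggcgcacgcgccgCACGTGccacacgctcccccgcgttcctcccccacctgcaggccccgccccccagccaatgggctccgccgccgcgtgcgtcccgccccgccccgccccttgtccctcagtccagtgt
Atg14, chr14:47568425-47568684, minus strand: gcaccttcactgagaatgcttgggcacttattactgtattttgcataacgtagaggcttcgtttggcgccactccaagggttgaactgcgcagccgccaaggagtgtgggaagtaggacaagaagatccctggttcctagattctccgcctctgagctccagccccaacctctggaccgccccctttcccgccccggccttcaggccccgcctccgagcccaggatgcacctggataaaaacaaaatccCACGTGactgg
Ulk1, chr5:110810072-110810331, minus strand: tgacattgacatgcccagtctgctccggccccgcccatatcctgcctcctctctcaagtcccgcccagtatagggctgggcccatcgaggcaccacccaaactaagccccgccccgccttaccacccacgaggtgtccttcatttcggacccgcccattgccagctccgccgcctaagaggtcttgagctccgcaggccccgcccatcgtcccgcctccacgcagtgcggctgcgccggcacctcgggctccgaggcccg
Gabarapl1, chr6:129532942-129533201, plus strand: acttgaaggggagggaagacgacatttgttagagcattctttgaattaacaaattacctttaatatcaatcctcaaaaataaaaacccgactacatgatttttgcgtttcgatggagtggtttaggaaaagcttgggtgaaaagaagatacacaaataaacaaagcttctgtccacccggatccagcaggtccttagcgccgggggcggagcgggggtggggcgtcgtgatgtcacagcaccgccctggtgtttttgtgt

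Of all 32851 windows, 7.15% hold CACGTG. In Bnip3 its first base lies 108 bases before the start, and in Atg14 it begins 1 base before the start and spans it. None of the 8 genes' windows held the D-box TTATGTAA (0.938% of windows), its form TTACGTAA (0.119%), the core letters AGGTCA of REV-ERB and ROR factors (16.3%) or the FOXO letters TGTTTAC (3.65%). The letters ACGTG of hypoxia-inducible factors (19.6% of windows) occurred only within the E-boxes of Bnip3 and Atg14, and the C/EBP letters TTNNGCAA (10.8%) occurred in Atg14 and in 1 window of Tfeb. Each search covered both strands and describes letters, not binding.

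Library totals ran from 1662449 to 14281894 counts with a median of 6431391, and were lowest in nuclear RNA. In 4 libraries, all at ZT22, Xist, a transcript of female cells, stood above 100 CPM (counts scaled to an equal total in every library), against the labelled male sex: replicate 5 of wild-type total RNA, replicate 5 of nuclear RNA, replicate 1 of polysomal RNA and replicate 6 of Bmal1-/- total RNA. The other libraries had at most 5.67 CPM. Averaged over time, Arntl was higher in Bmal1-/- liver (log2 1.24 ± 0.12 SE, adjusted p = 3.52e-13 by edgeR). At ZT10, its low point in wild type, it spanned 0.251 to 1.63 CPM in wild type and 9.26 to 15.8 CPM in the mutant. At ZT2 the means were 11.8 and 9.16 CPM and at ZT22 12.6 and 11.6 CPM, in the same order, with overlapping libraries. A tag from the end of the mRNA may lie outside the altered stretch and so checks nothing. The clock outputs did separate the genotypes: Dbp at ZT10 spanned 64.9 to 137 and 1.42 to 4.77 CPM, and Nr1d1 at ZT6 spanned 30.1 to 49.8 and 0.0 to 1.25 CPM. All 7 hepatocyte markers were detected, and no marker of the other listed cell types had 0 counts throughout a series. Over the libraries, summed cholangiocyte markers ran from 16.2 to 66.6 CPM in wild-type and 45.8 to 136 CPM in Bmal1-/- total RNA. Summed Kupffer cell markers ran from 129 to 902 and 96.4 to 484 CPM. Averaged over time, 2 of 2 tested cholangiocyte genes were higher and 7 of 8 Kupffer cell genes lower. Of all genes 22.4% were higher and 21.7% lower. Lower too were 2 of 3 erythroid and 2 of 2 adipocyte genes, and of 5 stellate cell genes 2 were higher and 2 lower. Of 7 hepatocyte genes 1 was higher and 3 lower, and of 6 sinusoidal endothelial genes 1 was higher and 3 lower. In bulk liver RNA, fewer cells of a type and less RNA per cell cannot be told apart, and the part of these cell types in the results was not tested.

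Each library counts tags at RNA ends, so CPM does not scale with RNA length and can be set side by side between genes. In wild-type total RNA, Gabarapl1 was the most abundant of the 10, at a mean of 201 ± 66.98 CPM (SD, n = 36 libraries over the day). Sqstm1 followed with 188 ± 37.4, Bnip3 with 155 ± 47.9 and Map1lc3b with 93.3 ± 21.6 CPM. Ulk1 (67.1 ± 22.3 CPM), Becn1 (57.7 ± 7.195 CPM) and Map1lc3a (40.8 ± 7.595 CPM) lay in the middle. Wipi1 (25.8 ± 5.597 CPM), Atg14 (16.7 ± 4.75 CPM) and Tfeb (2.33 ± 0.8005 CPM) were lowest. Gabarapl1, Sqstm1 and Bnip3 lay within 1 SD of each other. Ulk1 and Becn1 differed by less than the SD of Ulk1 and more than that of Becn1. Tfeb had 2 to 35 tags in a wild-type total library, so that small changes of it were not detectable at this depth.

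In wild-type total RNA, 5 of the 10 genes followed a 24 h curve: Bnip3, Gabarapl1, Ulk1, Atg14 and Sqstm1. The test was edgeR's quasi-likelihood test with Benjamini-Hochberg adjusted p under 0.05, as for every adjusted p that follows, and it called 18.9% of all 11964 genes. Their fitted peaks were spread from early in the light phase to early in the dark phase. The median ratio of fitted peak to fitted trough was 1.46 over the 10 genes and 1.25 over all genes tested.

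Ulk1, the initiating kinase, was high late in the light phase. At ZT10 its 6 libraries spanned 82.8 to 112 CPM with a median of 95.5, and at ZT2 36.1 to 60.7 CPM with a median of 47.8. The libraries of these times did not overlap. The fitted curve peaked at ZT9.35 ± 0.669 h (SE) with a peak-to-trough ratio of 1.81 (log2 0.85 ± 0.15 SE, adjusted p = 0.000226).

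Gabarapl1, of the ATG8 family, was high in the middle of the light phase. At ZT6 it spanned 218 to 372 CPM with a median of 268, and at ZT18 111 to 217 CPM with a median of 125. The ZT18 maximum was replicate 5, and the other 5 libraries there were at most 139.8 CPM. The curve peaked at ZT6.399 ± 0.652 h with a ratio of 1.89 (log2 0.92 ± 0.16, adjusted p = 0.000156).

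Atg14, which directs the lipid kinase complex to autophagosomes, was also high in the light at a far lower level. It spanned 17.96 to 28.02 CPM at ZT10 (median 20.6) and 8.08 to 17.5 CPM at ZT18 (median 12.5), without overlap. Its curve peaked at ZT7.92 ± 0.704 h with a ratio of 1.68 (log2 0.74 ± 0.14, adjusted p = 0.0004498).

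The receptor genes peaked at other times. Sqstm1, encoding p62, spanned 195 to 249.7 CPM at ZT6 (median 225) and 125 to 172 CPM at ZT14 (median 148), without overlap. Its time-point means were above 200 CPM at ZT22, ZT2 and ZT6, and the fitted peak lay at ZT1.31 ± 0.779 h with a ratio of 1.48 (log2 0.56 ± 0.11, adjusted p = 0.001500). Bnip3, the mitochondrial receptor, was instead high in the early night. It spanned 122 to 244 CPM at ZT14 (median 212) and 76.6 to 113 CPM at ZT2 (median 93.4), again without overlap. Its curve peaked at ZT14.5 ± 0.453 h with a ratio of 2.14 (log2 1.10 ± 0.13, adjusted p = 4.07e-07), the largest ratio of the 10. Bnip3 and Atg14, whose windows above hold an E-box, had fitted peaks on different sides of lights off, and a role of the E-box was not tested.

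The other 5 genes did not pass. Wipi1, which binds the membrane lipid, had a ratio of 1.298 (adjusted p = 0.142) with time-point means of 21.8 to 30.5 CPM. The ATG8 genes Map1lc3b and Map1lc3a had ratios of 1.33 (adjusted p = 0.1904) and 1.21 (adjusted p = 0.265), and the transcription factor gene Tfeb 1.45 (adjusted p = 0.242). Becn1 was the steadiest of the 10, with time-point means of 54.3 to 64.5 CPM and a ratio of 1.14 (adjusted p = 0.214). In Map1lc3b a single library stood apart, replicate 4 at ZT2 with 19.9 CPM beside 76.5 to 91.4 CPM in the other 5.

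**Figure D1:**
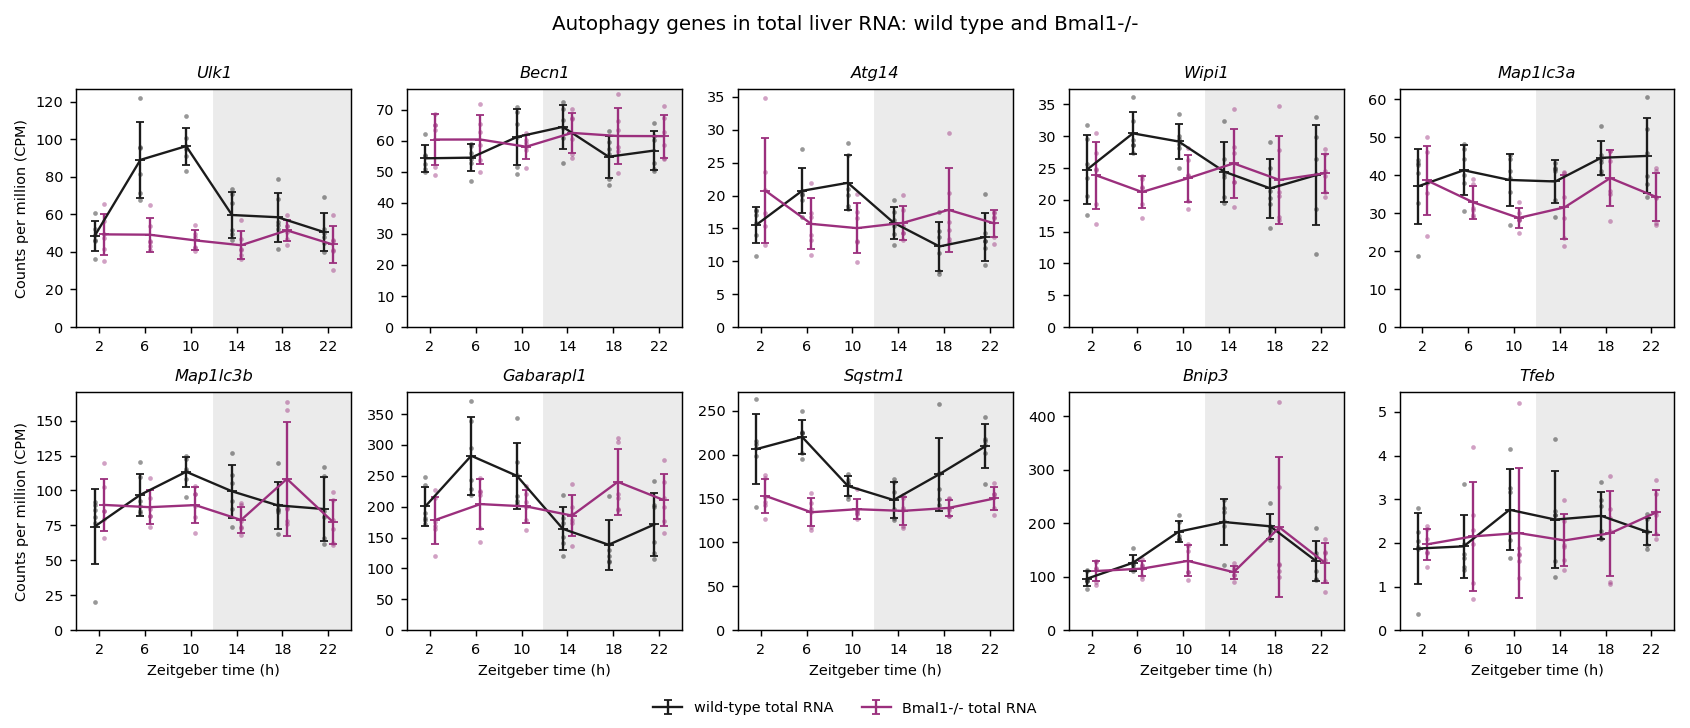
CPM of the 10 genes against zeitgeber time (h) in wild-type and Bmal1-/- total RNA, as single libraries with mean ± SD (n = 6 per time point). The genotypes are apart for Ulk1 at ZT6 and ZT10 and overlap for Becn1 at every time point.

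In Bmal1-/- total RNA none of the 10 genes passed the rhythm test by edgeR, where 0.00825% of 12126 genes did, that is 1 gene. DESeq2 called 0 of the 10 too. At an unadjusted p under 0.05 by edgeR there was 1 of the 10, Map1lc3a, and 491 of all genes. These 491 are fewer than the 1 in 20 that chance alone would give. With simulated rhythms in Bmal1-/- libraries, the edgeR test found 33 of 100 at a ratio of 1.5 and 79 of 100 at 2. Fitted ratios were 1.09 for Ulk1, 1.11 for Gabarapl1, 1.23 for Atg14, 1.15 for Sqstm1 and 1.37 for Bnip3. The difference between genotypes was tested itself, as an interaction, which called 5.18% of 12082 genes. It passed for Gabarapl1 (adjusted p = 0.000915), Ulk1 (adjusted p = 0.00562) and Atg14 (adjusted p = 0.0198), and did not for Bnip3 (adjusted p = 0.08601) or Sqstm1 (adjusted p = 0.238). In one fit of all libraries it passed for Gabarapl1 (adjusted p = 0.00267) and not for Ulk1 (adjusted p = 0.227) or Atg14 (adjusted p = 0.0924). With replicates 1 to 3 alone the adjusted p was 0.344 for Gabarapl1, 0.00763 for Ulk1 and 0.768 for Atg14. With replicates 4 to 6 alone it was 0.00465, 0.4196 and 0.0474. With simulated rhythms in wild type only, the interaction test found 6 of 100 at a ratio of 1.5 and 43 of 100 at 2. A gene that did not pass is thus not shown to keep its rhythm.

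**Figure D2:**
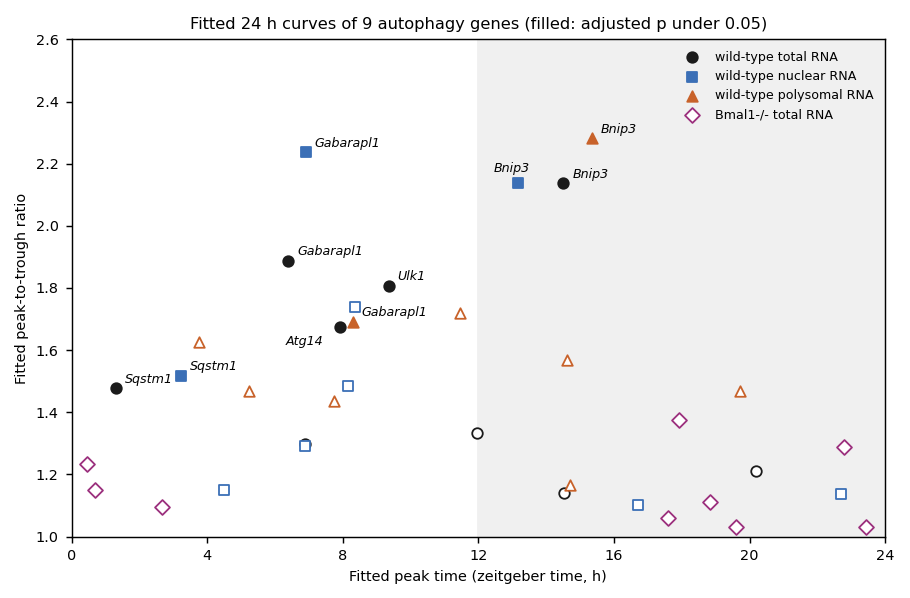
Fitted peak time (h) and fitted peak-to-trough ratio of 9 genes in the 4 series, filled where the adjusted p is under 0.05 (Tfeb is left out for its low counts). Bnip3 lies between ZT13.2 and ZT15.3 in the 3 wild-type series, and no Bmal1-/- point is filled.

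At single time points, 16 of 60 pairs of gene and time differed between the genotypes, 15 lower and 1 higher in Bmal1-/- liver, against 10.9% of the 72492 pairs of all genes. The count was 5 with all libraries in one fit, and 10 or 6 with replicates 1 to 3 or 4 to 6 alone. Ulk1 was called lower at ZT6, ZT10 and ZT14. At ZT10 its Bmal1-/- libraries spanned 40.4 to 54.3 CPM (median 45.3), all below the wild-type libraries (log2 -1.13 ± 0.15, adjusted p = 6.00e-08, with 16.4% of genes called at ZT10). At ZT6 the mutant spanned 41.1 to 65.2 CPM and wild type 67.7 to 122 CPM, again apart (log2 -0.91 ± 0.15, adjusted p = 1.79e-05, 10.1% called). At ZT2, where wild-type Ulk1 was lowest, the means were 48.4 CPM in wild type and 49.3 CPM in the mutant, with overlapping libraries.

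Sqstm1 was called lower at every time point but ZT14. At ZT6 its mutant libraries spanned 114 to 156 CPM (median 136), below all wild-type libraries (log2 -0.77 ± 0.12, adjusted p = 3.14e-06). At ZT14, the wild-type low point, the means were 148 CPM in wild type and 136 CPM in the mutant. Sqstm1 was the only one of the 10 called at ZT2, where 9.76% of genes were.

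Bnip3 was called lower at ZT10 and ZT14, the rising side of its wild-type curve. At ZT14 the mutant spanned 90.03 to 126 CPM (median 108) and overlapped only the lowest wild-type library (log2 -0.99 ± 0.21, adjusted p = 0.000794, 9.73% called). At ZT10 the ranges of 93.9 to 162 and 169 to 216 CPM were apart (log2 -0.58 ± 0.21, adjusted p = 0.0475). At ZT18 the mutant livers were divided: replicate 5 had 427 CPM, replicate 6 had 268 CPM, and the other 4 had 99.1 to 125 CPM, below the wild-type span of 168 to 237 CPM.

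Gabarapl1 differed in opposite directions at different times. At ZT6 the mutant was lower, spanning 142 to 247 CPM (median 222) and overlapping wild type (log2 -0.53 ± 0.18, adjusted p = 0.0438). At ZT18 it was higher, spanning 195 to 311 CPM (median 217), and overlapped only wild-type replicate 5 (log2 0.62 ± 0.18, adjusted p = 0.0133, 12.7% called). The other called pairs were Atg14 at ZT10 (log2 -0.62 ± 0.20, adjusted p = 0.0211), Wipi1 at ZT6 (log2 -0.58 ± 0.18, adjusted p = 0.0276), Map1lc3a at ZT10 (log2 -0.50 ± 0.17, adjusted p = 0.0301) and Map1lc3a at ZT22 (log2 -0.50 ± 0.17, adjusted p = 0.0495, 6.97% called). Of these, only Wipi1 at ZT6 had libraries that did not overlap, at 17.1 to 23.8 CPM in the mutant and 27.4 to 36.2 CPM in wild type. Becn1, Map1lc3b and Tfeb were called at no time point.

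Averaged over the 6 time points, 5 of the 10 genes were lower in Bmal1-/- total RNA and none was higher. Of all genes 44.1% were called, 22.4% higher and 21.7% lower, so the number called among the 10 was near the background, and their median log2 difference was -0.19 beside 0.01 over all genes. Ulk1 fell by 0.55 ± 0.06 on the log2 scale (SE, adjusted p = 2.73e-11), Sqstm1 by 0.49 ± 0.05 (adjusted p = 2.14e-13) and Map1lc3a by 0.36 ± 0.07 (adjusted p = 1.25e-05). Bnip3 fell by 0.33 ± 0.09 (adjusted p = 0.00116) and Wipi1 by 0.22 ± 0.07 (adjusted p = 0.0125). By mean CPM, Sqstm1 was lower at 6 of 6 time points, Ulk1, Map1lc3a and Bnip3 at 5, and Wipi1 at 3. The fitted log2 differences of Wipi1 at its other times, ZT14, ZT18 and ZT22, were -5.60e-05, -0.09 and -0.10. Those of Ulk1 and Map1lc3a at ZT2 were -0.05 and -0.02, so mean CPM and fit differ in sign there. The differences of the others were -0.17 ± 0.08 for Map1lc3b (adjusted p = 0.0829), -0.16 ± 0.13 for Tfeb, -0.06 ± 0.08 for Atg14, -0.05 ± 0.07 for Gabarapl1 and -0.02 ± 0.04 for Becn1. By mean CPM, Becn1, Atg14 and Gabarapl1 were instead higher in Bmal1-/- liver. They had 60.7, 16.8 and 203 CPM there and 57.7, 16.7 and 201 CPM in wild type. Without the low ZT2 library, Map1lc3b was called as well (log2 -0.19, adjusted p = 0.0151). With replicates 4 to 6 alone, Map1lc3a (adjusted p = 0.0513) and Bnip3 (adjusted p = 0.156) were not called.

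**Figure D3:**
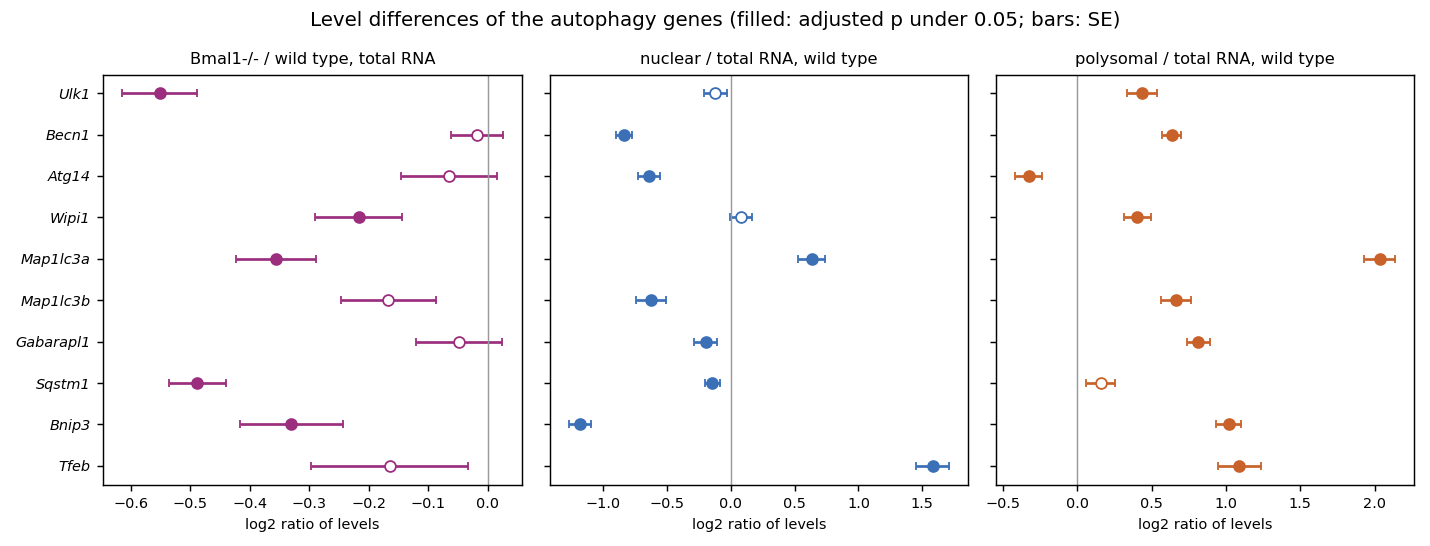
Log2 ratio of levels averaged over 6 time points for Bmal1-/- over wild-type total RNA, nuclear over total RNA and polysomal over total RNA, as edgeR estimates with SE, filled where the adjusted p is under 0.05. Map1lc3a in polysomal RNA, at 2.03, is the highest of the 30 points.

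The wider pathway was taken from 7 lists that hold 69 autophagy genes besides the 10. Of the 66 tested, 7 were higher and 32 lower in Bmal1-/- liver, with a median log2 difference of -0.12, beside 22.4% of all genes higher and 21.7% lower with a median of 0.01, which also stand beside the list counts that follow. In the list of ATG8 proteins and their conjugation enzymes, which includes 3 of the 10, 11 of 16 genes fell and none rose. There Atg4c, a protease that processes ATG8 proteins, fell by 1.11 ± 0.19 (adjusted p = 3.08e-06), and Atg16l2, a relative of the conjugation factor ATG16L1, by 0.81 ± 0.13 (adjusted p = 1.85e-07). Foxo3, a transcription factor known to drive autophagy genes, fell by 0.67 ± 0.06 (adjusted p = 1.02e-15), from 28.7 ± 7.73 to 18.9 ± 2.82 CPM (SD, n = 36 each). Nrbf2, a partner of ATG14 in the lipid kinase complex, rose by 0.51 ± 0.15 (adjusted p = 0.00492). Atg4c in Bmal1-/- liver (5.15 CPM) and Nrbf2 in wild type (6.07 CPM) lay below the count limit for named genes. Both passed that limit only through the genotype where they were higher. Of 26 lysosome genes 5 rose and 8 fell, with a median of 0.01. Among them Ctsl, the protease cathepsin L, rose from 219 ± 65.8 to 359 ± 83.05 CPM (log2 0.62 ± 0.09, adjusted p = 1.54e-08), and Naglu, an enzyme that degrades heparan sulfate, rose by 0.48 ± 0.07 (adjusted p = 5.93e-08). Each of these 6 genes moved the same way at 6 of 6 time points.

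Rhythms in the wider lists were found in wild-type total RNA for 17 of 67 other autophagy genes and 3 of 26 lysosome genes, beside 18.9% of all genes. The largest ratios, with Bnip3 and Gabarapl1, were those of Calcoco1, a coiled-coil protein that acts as an autophagy receptor (4.12, peak ZT5.58 ± 0.619 h, adjusted p = 9.78e-05), and Npc1, a lysosomal cholesterol transporter (2.07, peak ZT8.96 ± 0.476 h, adjusted p = 1.04e-06). Both also differed in rhythm between genotypes (adjusted p = 0.00142 and 4.04e-06). Over the 24 time-point means of the 4 series, the 5 genes of 7731 most like Bnip3 by Pearson's r of log2 CPM were Ptp4a1 (0.96), Mapk14 (0.95), Sord (0.95), 4833439L19Rik (0.95) and Ginm1 (0.94). These means share the differences between RNA fractions, so r describes fractions as well as time. Among the 10 genes Map1lc3b (0.93) and Becn1 (0.91) were nearest to Bnip3, and Sqstm1 (0.13) was farthest of those compared.

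The nuclear and polysomal series were each compared with the same wild-type total libraries. In nuclear RNA 3 of the 10 genes were rhythmic, where 5.99% of 11172 genes were. These were Gabarapl1 (ratio 2.24, peak ZT6.91 ± 0.628 h, adjusted p = 0.000167), Bnip3 (2.14, ZT13.2 ± 0.711 h, adjusted p = 0.00105) and Sqstm1 (1.52, ZT3.22 ± 0.8505 h, adjusted p = 0.00853). Ulk1 had a ratio of 1.74 (adjusted p = 0.0549). With replicates 1 to 3 alone none was called. In polysomal RNA 2 were rhythmic, where 7.9% of 10691 genes were: Bnip3 (2.28, ZT15.3 ± 0.595 h, adjusted p = 7.88e-05) and Gabarapl1 (1.69, ZT8.29 ± 0.719 h, adjusted p = 0.00121). Sqstm1 had a polysomal ratio of 1.63 (adjusted p = 0.135, and 0.0246 without polysomal replicate 1). The polysomal count was 0 with replicates 1 to 3 alone and 4 in one fit of all libraries.

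By library, Bnip3 in polysomes spanned 185 to 654 CPM at ZT14 (median 476) and 167 to 332 CPM at ZT2 (median 208). In nuclear RNA it spanned 46.6 to 138 CPM at ZT14 (median 94.7) and 28.2 to 54.01 CPM at ZT2 (median 39.2). Both fractions overlapped between these times, unlike total RNA. Gabarapl1 in polysomes spanned 344 to 590.0 CPM at ZT10 (median 494) and 206 to 338 CPM at ZT18 (median 278), without overlap. In nuclear RNA it spanned 171 to 339.5 CPM at ZT6 (median 270.4) and 81.5 to 234 CPM at ZT18 (median 103), where replicate 5, the maximum, made the overlap.

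A difference in rhythm from total RNA was called for 0% of 11864 genes in nuclear and 0% of 11556 genes in polysomal RNA by edgeR's interaction test. None of the 10 reached an unadjusted p under 0.05 in either, and DESeq2 called 0 of the 10 in each, while of all genes 244 and 673 had an unadjusted p under 0.05. Fitted peaks in nuclear, total and polysomal RNA were ZT13.2, ZT14.5 and ZT15.3 for Bnip3, and ZT6.91, ZT6.399 and ZT8.29 for Gabarapl1. The 244 in nuclear RNA are fewer than chance alone would give. The main interaction test did not use pairs, although same-numbered total and nuclear libraries deviated alike. A test that misses its threshold does not show that the rhythms or the peak times were equal.

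**Figure D4:**
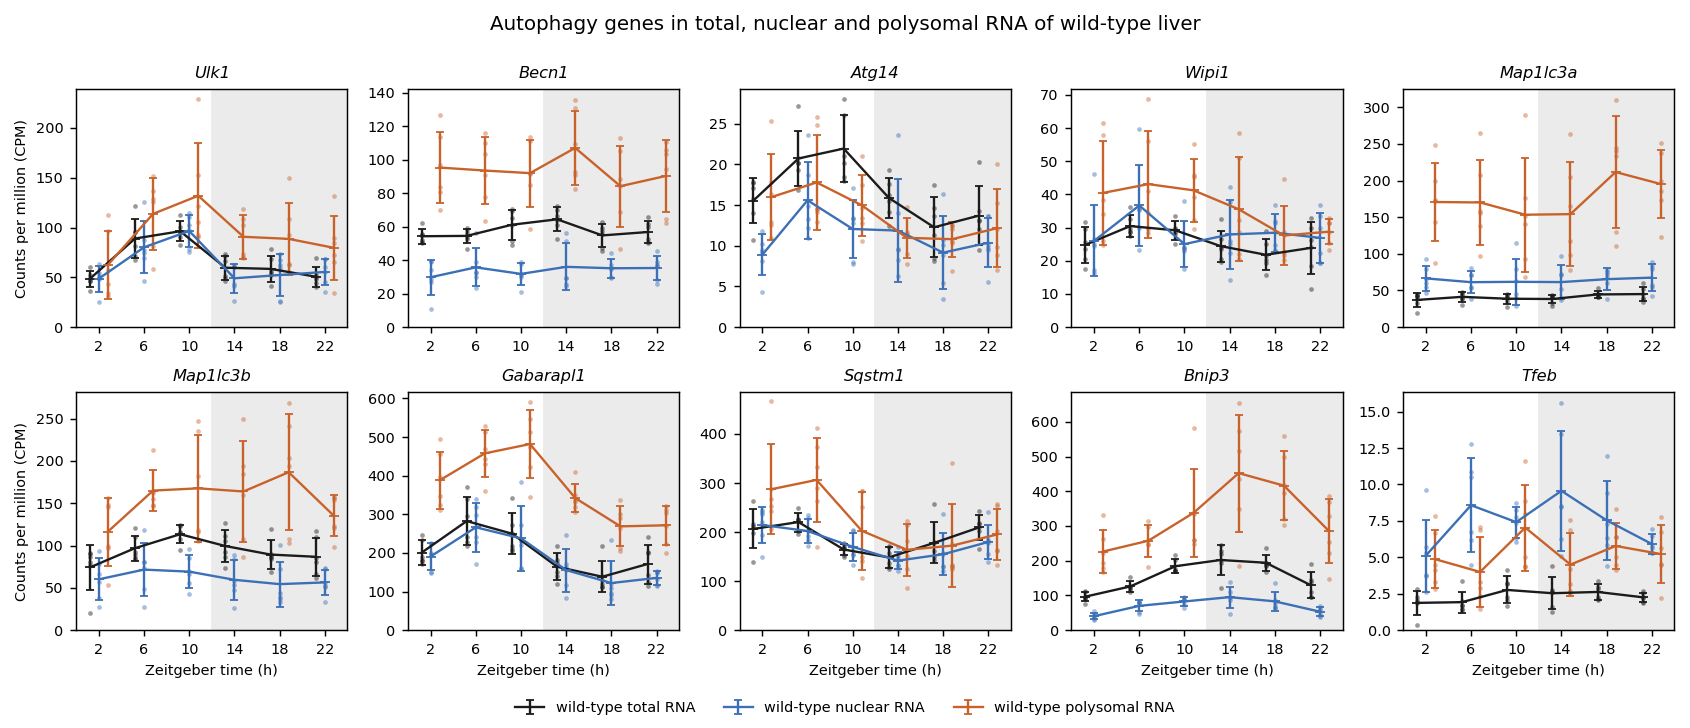
CPM of the 10 genes of wild-type liver against zeitgeber time (h), in total RNA and in both fractions, as single libraries with mean ± SD (n = 6 per time point). Map1lc3a in polysomal RNA lies above total RNA throughout, and mean nuclear Bnip3 lies below total RNA at every time point.

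Averaged over time, 8 of the 10 genes differed between nuclear and total RNA, 2 higher and 6 lower, beside 83.8% of 11864 genes, 41.6% higher and 42.1% lower. The count is thus at the background, and CPM is a share of each library, not a number of molecules. Tfeb had 7.35 ± 2.895 CPM (SD, n = 36) in nuclear and 2.33 ± 0.8005 CPM in total RNA (log2 1.58 ± 0.13 SE, adjusted p = 1.01e-18). Map1lc3a had 63.96 ± 19.5 CPM in nuclear RNA (log2 0.63 ± 0.11, adjusted p = 2.51e-07). Bnip3 was farthest below total RNA, at 70.6 ± 26.3 CPM (log2 -1.18 ± 0.09, adjusted p = 9.03e-21). Becn1 fell by 0.84 ± 0.06 (adjusted p = 3.23e-20), Atg14 by 0.64 ± 0.09 (adjusted p = 7.58e-10) and Map1lc3b by 0.63 ± 0.12 (adjusted p = 2.99e-06). The LC3 genes, which encode close relatives, thus lay on opposite sides of total RNA. Gabarapl1 (-0.20 ± 0.09, adjusted p = 0.0392) and Sqstm1 (-0.14 ± 0.06, adjusted p = 0.0217) were called by a small margin, lost without the 4 libraries high in Xist (adjusted p = 0.0812 and 0.103). Ulk1 (-0.12 ± 0.09) and Wipi1 (0.08 ± 0.09) did not pass.

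In polysomal RNA 9 of the 10 genes differed from total RNA, 8 higher and 1 lower, beside 76% of 11556 genes, 38.8% higher and 37.2% lower. The median log2 difference was 0.65 over the 10 genes and 0.02 over all genes. Map1lc3a differed most: it averaged 176 ± 63.8 CPM in polysomal and 40.8 ± 7.595 CPM in total RNA (log2 2.03 ± 0.10, adjusted p = 1.87e-28). Its lowest polysomal library, with 68.5 CPM, exceeded the highest total library, with 60.5 CPM. Bnip3 averaged 329 ± 129.5 CPM (log2 1.02 ± 0.08, adjusted p = 3.93e-18). Tfeb (1.09 ± 0.14), Gabarapl1 (0.81 ± 0.08), Map1lc3b (0.67 ± 0.10), Becn1 (0.64 ± 0.07), Ulk1 (0.44 ± 0.10) and Wipi1 (0.40 ± 0.09) were higher as well, and Atg14 was lower (-0.32 ± 0.09, adjusted p = 0.00117). Summed erythroid markers ran from 301 to 5819 CPM in total and 891 to 10034 CPM in polysomal RNA. Summed hepatocyte markers ran from 28362 to 88006 CPM in total, 20393.5 to 56768 CPM in nuclear and 13712 to 57869 CPM in polysomal RNA. The part of these markers' cells in the results was not tested.

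Sqstm1 was not called in polysomal RNA (0.16 ± 0.10, adjusted p = 0.134), and the sets of replicate numbers gave opposite signs. The log2 difference was 0.62 with replicates 1 to 3 (adjusted p = 8.15e-06) and -0.45 with replicates 4 to 6 (adjusted p = 4.40e-05). The call of Ulk1 was absent with replicates 1 to 3 (-0.03, adjusted p = 0.834). Deviations of same-numbered polysomal and total libraries correlated above 0.1 in 0 of 36 pairs. At ZT22 the library high in Xist was replicate 5 in total and replicate 1 in polysomal RNA. At ZT18 the library standing apart for Sqstm1 was likewise replicate 5 in total and replicate 1 in polysomal RNA. A set of numbers need not hold the same livers in both series, and its part in these differences was not tested.

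Of the other autophagy genes, 26 of 67 were higher and 28 lower in polysomal RNA, with a median of 0.03, near the 38.8% of all genes higher and 37.2% lower. Cebpb, a transcription factor of liver metabolism, rose by 1.93 ± 0.14 (adjusted p = 8.94e-20), and Atg4d, a protease of ATG8 proteins, by 1.90 ± 0.08 (adjusted p = 1.10e-32). Calcoco1 fell by 2.33 ± 0.16 (adjusted p = 1.49e-20), Pik3r4, a subunit of the lipid kinase complex, by 2.14 ± 0.14 (adjusted p = 6.51e-23), and Rb1cc1, a scaffold of the ULK1 complex, by 1.91 ± 0.11 (adjusted p = 5.35e-25). Pik3r4, at 4.24 CPM in polysomal RNA, passed the count limit for named genes only through total RNA. Of 26 lysosome genes 17 were higher and 1 lower.

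In nuclear RNA, 24 of the 66 other autophagy genes were higher and 34 lower, beside 41.6% of all genes higher and 42.1% lower, near those shares. Of 12 receptor genes, Sqstm1 and Bnip3 included, 11 were lower, with Nbr1, a receptor related to p62, at -2.31 ± 0.08 (adjusted p = 6.04e-38). Rb1cc1 fell by 1.83 ± 0.10 (adjusted p = 3.91e-27), and Atp6v1a, of the lysosomal proton pump, by 2.34 ± 0.07 (adjusted p = 4.58e-41), although 16 of 26 lysosome genes were higher. Tecpr1, which links autophagosomes to lysosomes, rose by 2.06 ± 0.09 (adjusted p = 6.88e-32), Ambra1, a partner of beclin 1, by 2.03 ± 0.09 (adjusted p = 2.15e-32), and the lysosomal membrane gene Cln3 by 1.82 ± 0.08 (adjusted p = 3.12e-32).

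The libraries read the ends of polyadenylated RNA, and the deposited site table counts them by position (mm10). Shares below are of a gene's counts in the authors' filtered sites, as mean ± SD over 36 libraries. Sites were tested where they held at least 5% of the gene's counts, pooled over both series compared, in genes with at least 2 such sites. Ulk1 and Map1lc3a have 1 filtered site each, at chr5:110784485-110784636 and chr2:155277870-155278087.

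In nuclear RNA, 10 of 13 tested sites in 5 of 6 genes differed in usage from total RNA, beside 78.6% of 11689 sites. Among them were the sites of Becn1, which entered the test only through its nuclear counts. The minor site of Sqstm1, also among them, entered only through total RNA. Wipi1 (chr11:109573521-109611389, minus strand) has 3 sites. The first in the order of transcription, chr11:109575129-109575190, lies 1608 bases before the annotated gene end and held 19.8% ± 5.403 in total and 70.1% ± 12.9 in nuclear RNA (log2 1.82 ± 0.08, adjusted p = 8.11e-31). In polysomal RNA it held 46.9% ± 11.6 (log2 1.24 ± 0.09, adjusted p = 2.21e-19), and in Bmal1-/- total RNA 18.1% ± 6.75. The last, chr11:109573343-109573441, fell from 44.6% ± 6.01 to 15.5% ± 9.83 in nuclear RNA (log2 -1.60 ± 0.13, adjusted p = 1.93e-17).

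Gabarapl1 (chr6:129533192-129542331, plus strand) has a site near its start, chr6:129533371-129533492, 179 bases into the gene. It held 6.06% ± 1.41 in total, 22.4% ± 4.01 in nuclear (log2 1.88 ± 0.07, adjusted p = 7.99e-33) and 14.3% ± 4.66 in polysomal RNA (log2 1.23 ± 0.10, adjusted p = 2.98e-17). The Gabarapl1 counts above therefore include tags from the start of the gene, with a larger share in nuclear and polysomal RNA. Of 11 sites tested in Bmal1-/- liver it was the 1 called, at 7.69% ± 2.45 (log2 0.33 ± 0.10, adjusted p = 0.0313, beside 8.78% of 13221 sites), with 3 sites called from replicates 1 to 3 alone. With replicates 4 to 6 alone it was not called (adjusted p = 0.891).

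Becn1 (chr11:101288258-101302286, minus strand) has a site 1561 bases before its end, chr11:101289819-101289841. It held 3.83% ± 1.64 in total and 18.5% ± 10.2 in nuclear RNA (log2 2.24 ± 0.18, adjusted p = 3.42e-18). Its share in total RNA was below the 5% limit, so it passed the filter only through nuclear RNA, where it was high. The call is therefore not independent of the filter, and Becn1 was tested in no other comparison. Atg14 (chr14:47540893-47568434, minus strand) went the other way: its inner site, chr14:47554565-47554603, held 25.3% ± 7.77 in total and 9.701% ± 7.83 in nuclear RNA (log2 -1.52 ± 0.19, adjusted p = 9.72e-11). In Sqstm1 (chr11:50200152-50210820, minus strand) the minor site chr11:50200384-50200515 fell from 8.77% ± 1.56 to 4.75% ± 1.42 (log2 -0.88 ± 0.08, adjusted p = 7.54e-16). Its nuclear share was below the 5% limit, so it passed the filter only through total RNA, where it was high. This call too is not independent of the filter. Bnip3 (chr7:138890836-138909506, minus strand) had no called site in nuclear RNA. Its inner site, chr7:138897997-138898032, held 7.19% ± 2.75 in total and 7.499% ± 4.64 in nuclear RNA, and fell to 5.28% ± 2.77 in polysomal RNA (log2 -0.50 ± 0.17, adjusted p = 0.00655). In polysomal RNA 8 of 11 tested sites in 4 of 5 genes were called, beside 70.6% of 12384 sites.

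**Figure D5:**
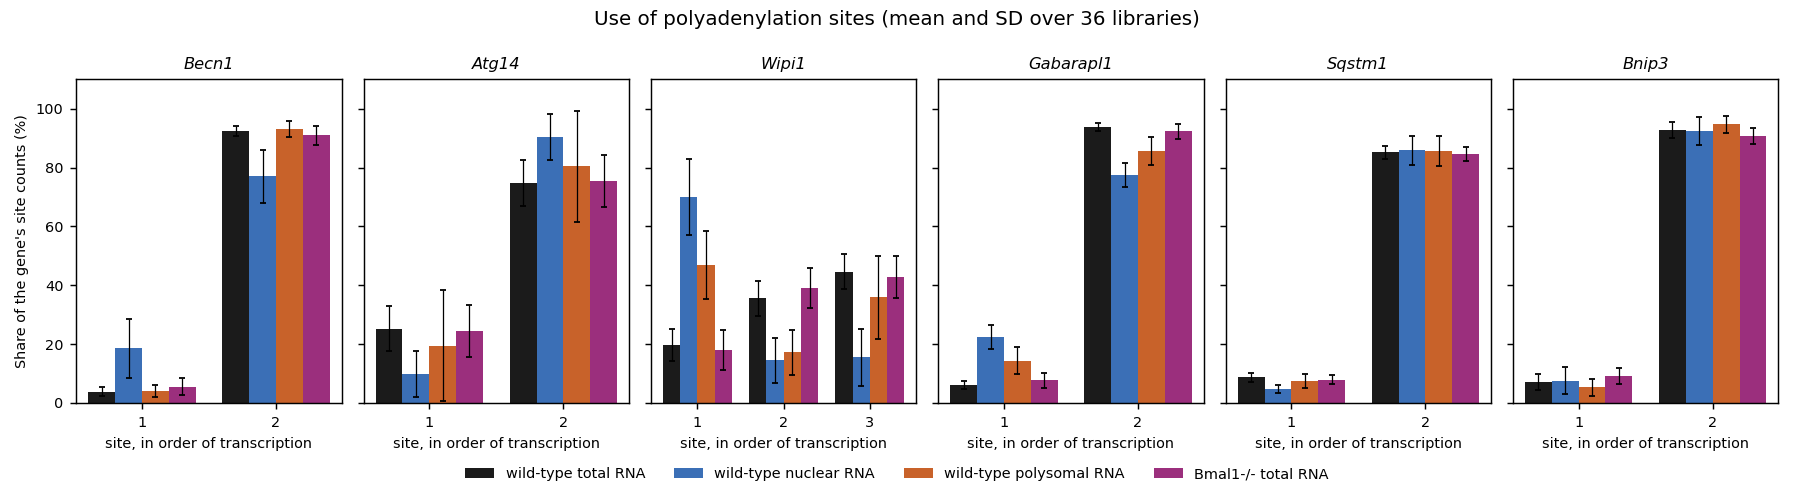
Share of a gene's filtered site counts (%) at each site, numbered in the order of transcription, as mean and SD over 36 libraries in each of the 4 series. The first site of Wipi1 rises from 19.8% in total to 70.1% in nuclear RNA.

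Filtered sites carried 0.595 of the gene counts of Wipi1 and 0.608 of those of Atg14, against 0.958 for Ulk1 and 0.978 for Sqstm1, so the shares of Wipi1 and Atg14 leave out many tags. Outside the filtered list, a site of Ulk1 at chr5:110807510-110807519 averaged 3.03 CPM in nuclear, 0.265 in total and 0.0485 in polysomal RNA. A site of Sqstm1 at chr11:50201714-50201734 averaged 10.7, 1.25 and 0.303 CPM in the same order. Other annotated genes overlap or lie within 1000 bases of 7 of the 10: Pigu of Map1lc3a, Zcchc14 of Map1lc3b, Mrnip of Sqstm1, 1700101I11Rik of Gabarapl1, Gm18258 of Bnip3, Arsg of Wipi1 and Cntd1 of Becn1. Whether the gene counts used strand is not given in the sources used here, so tags of these neighbours may not be fully separated.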

How the data were processed

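The authors deposited whole-number counts per gene and per polyadenylation site for the QuantSeq libraries, which count tags at the ends of polyadenylated RNA. STAR 2.4.2a, edgeR and HOMER, and the builds mm10 and GRCm38.p5, are named in the submitters' processing notes, without their roles. The counting tool is not given in the sources used here. Sites in the authors' filtered list were used for usage tests.

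Counts were fitted with edgeR 4.0.16 in R 4.3.3 (quasi-likelihood, robust, TMM scaling) over all genes that averaged 10 or more counts, with Benjamini-Hochberg adjustment over all of them. Levels were the mean of 6 time-point means, rhythms a cosine and a sine of 24 h, and differences in rhythm an interaction. Levels in CPM use plain library totals, so a fitted ratio can differ from the ratio of CPM means. For Gabarapl1 at ZT18, Bmal1-/- over wild type, the fitted ratio was 1.53 and the ratio of CPM means 1.74. The SE of a peak time and of a log2 peak-to-trough value is an approximation for a balanced design. Site usage was fitted on site counts with the gene's summed site counts plus 0.5 as offset. Sites needed at least 5% of the counts pooled over both series compared, in genes averaging 50 or more and with 2 or more such sites. The strand of Map1lc3a and Becn1 was read from site counts. Scripts were tested on simulated data. Of 360 pairs of libraries within groups, 0 were identical, and chi-square over degrees of freedom was at least 3.23 in each.

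The 10 genes and the gene lists were chosen with earlier results of these data known. Besides the 10, named genes were the 3 largest rises and 3 largest falls in the autophagy and lysosome lists, the 4 largest rhythms, the 5 genes most like the most rhythmic of the 10, and Arntl, Dbp and Nr1d1, with an average of 50 or more counts required for the lists and the likeness. Alternatives were DESeq2 1.42.0, median-ratio size factors, a lower count filter, replicate blocks, either set of 3 replicates, one fit of all libraries, any difference over time, and left-out libraries. Leaving out wild-type total and nuclear replicate 5 at ZT18, or wild-type total replicate 4 at ZT2, was chosen after seeing the data. The total per library, which sets the precision, ran from 1662449 to 14281894 counts. By mean CPM and library totals, Atg4c in Bmal1-/- liver, Nrbf2 in wild-type liver and Pik3r4 in polysomal RNA averaged below 50 counts. They passed the limit for named genes only through the series where they were higher, so their naming is not independent of it.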

Additional observations from a re-analysis of the deposited data

Results flagged for a closer look

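In 18 of 240 groups of 6 libraries, 1 library stood far from the other 5 by Dixon's criterion, which chance alone meets in about 1 in 20 groups. Wild-type replicate 5 at ZT18 did so for 3 genes in both total and nuclear RNA. In total RNA these were Gabarapl1 (217 CPM, others 111 to 139.8), Sqstm1 (257 CPM, others 142 to 179) and Bnip3 (237 CPM, others 168 to 194). In nuclear RNA they were Gabarapl1 (234 CPM, others 81.5 to 118), Sqstm1 (238 CPM, others 121 to 156) and Bnip3 (136 CPM, others 62.3 to 85.7). Nuclear replicate 6 was high for Wipi1 at ZT2 (46.04 CPM, others 16.5 to 26.7), at ZT6 (59.7 CPM, others 23.4 to 36.4) and at ZT10 (38.05 CPM, others 17.5 to 24.1).

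In polysomal RNA a library stood apart at ZT18 for Wipi1 (replicate 4, 44.7 CPM, others 20.2 to 28.8) and at ZT6 for Map1lc3b (replicate 1, 212 CPM, others 147 to 165). Sqstm1 did so at ZT2 (replicate 3, 466 CPM, others 206 to 287) and ZT18 (replicate 1, 342 CPM, others 125 to 176), and Bnip3 at ZT10 (replicate 4, 583 CPM, others 249 to 341). In wild-type total RNA, replicate 4 at ZT2 was low for Map1lc3b (19.9 CPM, others 76.5 to 91.4) and replicate 6 at ZT6 was high for Tfeb (3.34 CPM, others 1.37 to 1.98). In Bmal1-/- total RNA, replicate 1 at ZT10 was high for Sqstm1 (160.4 CPM, others 127 to 137) and Tfeb (5.21 CPM, others 1.18 to 1.89).

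The rhythm differed between genotypes by edgeR's interaction test for Gabarapl1 (adjusted p = 0.000915), Ulk1 (adjusted p = 0.00562) and Atg14 (adjusted p = 0.0198). In one fit of all libraries only Gabarapl1 of these passed (adjusted p = 0.00267, 0.227 for Ulk1 and 0.0924 for Atg14).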

How the results depend on the processing

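Of 1368 values of single genes and sites recomputed under an alternative, 1296 kept their direction and their side of the threshold, 36 lost a call, 24 gained one and 12 changed sign. Of 143 recomputed counts of called genes, pairs or sites, 129 stayed within 1.5 times the reported count. The causes of the other 14 were not tested. Where replicates were left out, the smaller number of libraries and differences between replicate numbers cannot be told apart. With replicates 4 to 6 alone, 3 genes were called for level in Bmal1-/- liver, 6 pairs of gene and time, 3 rhythmic genes in wild-type total RNA and 5 sites in polysomal RNA. With replicates 1 to 3 alone there were 10 pairs, 0 rhythmic genes in nuclear and 0 in polysomal RNA, and 3 sites in Bmal1-/- liver. One fit of all libraries gave 5 pairs, 4 rhythmic genes in polysomal RNA and 1 gene with a different rhythm in Bmal1-/- liver. With sites from 1% of a gene's counts, 16 sites were called in polysomal RNA. Leaving out the 4 libraries high in Xist, wild-type replicate 5 at ZT18 or wild-type total replicate 4 at ZT2 gave 5 to 6 genes called for level in Bmal1-/- liver, 6 to 8 for nuclear level, 15 pairs and 5 rhythmic genes in wild-type total RNA. Without polysomal replicate 1, 3 genes were rhythmic in polysomal RNA.

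Changes of sign came from these settings. With replicates 1 to 3, the log2 level difference was 0.0285 for Gabarapl1 and 0.0145 for Becn1 in Bmal1-/- liver and -0.0286 for Ulk1 in polysomal RNA, and the log2 usage of the main Bnip3 site in nuclear RNA was 0.0317. With replicates 4 to 6, the level of Sqstm1 in polysomal RNA was -0.449, and log2 usage was 0.007200 for the inner Atg14 site in Bmal1-/- liver, -0.00875 for its main site in polysomal RNA and 0.491 for the inner Bnip3 site in nuclear RNA. That Bnip3 value was 0.00371 without the libraries high in Xist and 0.0168 without replicate 5 at ZT18; without replicate 4 at ZT2 it kept its sign at -0.0298. The nuclear level of Wipi1 was -0.03400 with a filter of 1 count, and the usage of the main Sqstm1 site in polysomal RNA was -0.00373 without polysomal replicate 1; without replicate 5 at ZT18 it kept its sign at 0.00891.

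The labels do not say that same-numbered libraries are paired. Their deviations correlated above 0.1 in 34 of 36 pairs of total and nuclear RNA (28 best with their own number). This held for 0 of 36 of total and polysomal RNA (0 best) and 15 of 36 of the genotypes (14 best). Within a series, deviations of same-numbered libraries of different time points had a mean r of 0.19 to 0.241. For other numbers it was -0.0482 to -0.0373. Replicate number thus marked libraries that varied alike, and the main tests held no term for it. With the replicate block, 5 genes were rhythmic in polysomal RNA and 4 sites were called in Bmal1-/- liver, and no other count among the 10 genes moved by over 1.5 times.

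Over all genes, 2260 were rhythmic in wild-type total RNA, 1341 with replicates 1 to 3, 621 with replicates 4 to 6, 1017 in the fit of all libraries and 1411 by any difference over time. In nuclear RNA there were 669, with 174 and 237 from the replicate sets and 421 by any difference. In polysomal RNA there were 845, with 115 from replicates 1 to 3, 1505 with the replicate block, 2733 in the fit of all libraries and 346 by any difference. A different rhythm in Bmal1-/- liver was called for 626 genes, with 236 and 200 from the replicate sets, 186 in the fit of all libraries and 328 by any difference. In polysomal RNA it was called for 0 genes, with 9 by DESeq2, 54 with the lower filter, 2 with replicates 4 to 6, 5 without polysomal replicate 1 and 22 in the fit of all libraries, and in nuclear RNA for 0 genes and 0 by DESeq2. Rhythmic genes in Bmal1-/- liver numbered 1, with 0 by DESeq2 and 10 with the lower filter. Pairs of gene and time numbered 7927, with 4217 from replicates 4 to 6 and 3497 in the fit of all libraries. Sites called numbered 1161 in Bmal1-/- liver, 1926 with the replicate block and 743 with replicates 1 to 3, and with the lower filter rose from 9190 to 16364 in nuclear and from 8740 to 14728 in polysomal RNA. For site usage, scaling cancels in the offset, and DESeq2 and the fit of all libraries were not run.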
